A study of Arabidopsis thaliana with 6 samples.

Results

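RNA levels of 10 genes of the DNA damage response were measured in Arabidopsis thaliana plants of the accession Col and of the line epiRIL12, on 3 arrays each. The genes were listed by locus for their known roles, with earlier results of these data known, and they are 10 of the 29670 loci with a deposited log2 value: ATM (AT3G48190), ATR (AT5G40820), SOG1 (AT1G25580), WEE1 (AT1G02970), SMR5 (AT1G07500), SMR7 (AT3G27630), PARP1 (AT2G31320), PARP2 (AT4G02390), BRCA1 (AT4G21070) and XRI1 (AT5G48720). All 10 were measured on all 6 arrays, no filter on low values was applied, and they lie on all 5 chromosomes. epiRIL12 is an epigenetic recombinant inbred line: its chromosomes combine Col segments with segments inherited from a founder that lacked MET1, the enzyme that maintains CG methylation. Since it is a single line, what belongs to that line and what belongs to lost methylation cannot be told apart. Both genotypes were sampled at 14 days, from long-day growth without any treatment, so no group received a DNA-damaging agent. The labels call the material whole seedlings in one field and rosette leaves in another, and they do not say whether the 3 samples of a genotype were grown separately, so the p-values reflect only how these samples varied, which may be technical.

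In plants, broken or stalled DNA activates the kinases ATM and ATR. Both signal to SOG1, a NAC transcription factor that switches on repair genes and brakes on cell division and takes the place that p53 has in animals. Transcripts of several SOG1 targets, among them SMR5, SMR7, PARP1, PARP2, BRCA1 and XRI1, are widely used as readouts of DNA damage, whereas ATM, ATR and SOG1 act mainly through phosphorylation of proteins, which an array does not measure.

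Array medians lay between 6.80 and 6.84 on the log2 scale. The 4 leaf markers RBCS1A, LHCB1.3, RCA and GLK1 had values of 12.1 to 15.5 on all arrays. Of the 6 root markers, PYK10 had 8.41 to 9.10 and CASP1 6.43 to 6.80. The others were lower, EXPA7 at 5.86 to 6.20, COBL9 at 5.59 to 6.11 and IRT1 at 4.80 to 5.84. PIN2 stood at 4.85 to 5.10, close to the lower quartile of the arrays (4.71 to 4.90). These values do not settle which of the labels applies. The shoot meristem markers STM, WUS and CLV3 had 3.67 to 6.28. No marker was called between the genotypes. The RNA came from bulk tissue, so fewer cells of a type and less RNA per cell cannot be told apart. The labelled target was double-stranded and kept no strand, and probe sequences were not used here, so values of different loci depend on their probes as well as on RNA and are set only roughly against the array quartiles.

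None of the 10 genes was called between epiRIL12 and Col, 0 upward and 0 downward (limma, Benjamini-Hochberg adjusted p under 0.05 over all 29670 loci). Over all loci 0.974% were called, 0.89% higher and 0.0843% lower in epiRIL12, and among the protein-coding loci 0.179%, so a count of 0 among 10 genes does not stand out from the background. At an unadjusted p under 0.05 there was 1 gene, PARP2, where 7.04% of all loci passed. The differences ran from -0.042 for ATM to 0.36 for SMR7, 7 above 0 and 3 below, with a median of 0.027 against -0.023 over all loci. Of all loci, 43.4% were above 0. In 8 of the 10 genes the difference was smaller than its own standard error.

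**Figure D1:**
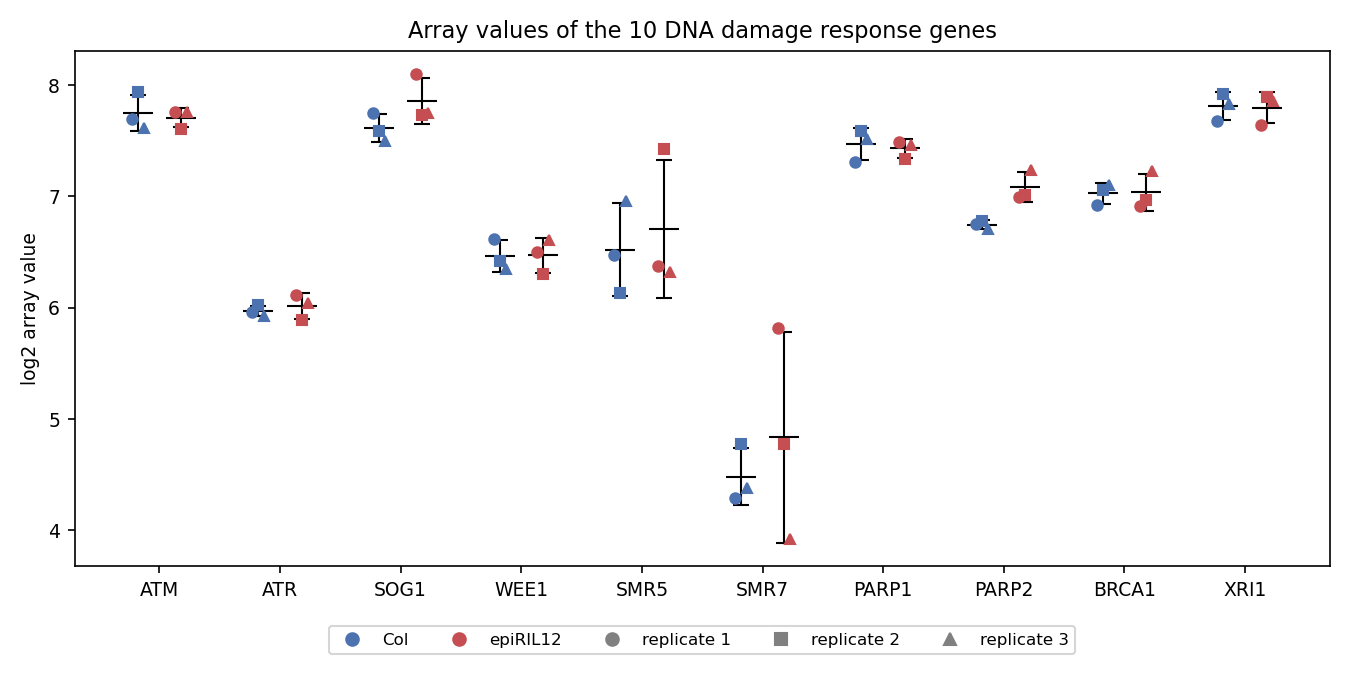
Log2 array values (vertical axis) of the 10 genes in Col (blue) and epiRIL12 (red); symbols are single arrays by replicate number, and black bars are the mean ± SD of 3 arrays. PARP2 is the one gene whose groups do not overlap, as in 12.1% of all loci in either direction. SMR5 and SMR7 have the widest spread within a genotype.

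ATM, the kinase that responds to double-strand breaks, had log2 values of 7.70, 7.94 and 7.62 on the Col arrays and 7.75, 7.61 and 7.76 on the epiRIL12 arrays. The groups overlapped, with the highest and the lowest value of all 6 arrays in Col replicate 2 and epiRIL12 replicate 2. Its log2 difference was -0.042 (SE 0.11, 95% interval -0.32 to 0.23, limma adjusted p = 0.987). ATR, the kinase that responds to single-stranded DNA at stalled replication forks, had 5.97, 6.02 and 5.92 in Col and 6.12, 5.89 and 6.04 in epiRIL12. The 2 highest values were from epiRIL12 and so was the lowest, and the difference was 0.046 (SE 0.10, interval -0.18 to 0.28, adjusted p = 0.983). In the annotation ATR overlaps another protein-coding gene, AT5G40810, whose signal may be mixed with its own. AT5G40810 stood at 11.1 in Col and 11.2 in epiRIL12, with a difference of 0.10 (SE 0.09).

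SOG1 lies directly below both kinases. Its log2 values were 7.75, 7.59 and 7.50 in Col and 8.10, 7.73 and 7.75 in epiRIL12. A single array, epiRIL12 replicate 1, lay above all Col arrays, while the other two epiRIL12 values lay just under Col replicate 1. The log2 difference was 0.25 (SE 0.13, interval -0.07 to 0.57, limma adjusted p = 0.837), which is 1.19-fold and was not called. Without epiRIL12 replicate 1 it was 0.13.

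WEE1, a kinase that holds cyclin-dependent kinases inactive when replication is disturbed, had log2 values of 6.62, 6.42 and 6.35 in Col and 6.50, 6.30 and 6.61 in epiRIL12. Its group means differed by 0.0064 (SE 0.12, interval -0.29 to 0.30, limma adjusted p = 0.998). SMR5 and SMR7 encode small inhibitors of cyclin-dependent kinases of the SIAMESE-related family and are induced by DNA damage and by reactive oxygen. SMR5 had 6.48, 6.13 and 6.96 in Col and 6.37, 7.43 and 6.32 in epiRIL12. The highest value was in epiRIL12 replicate 2 and the next in Col replicate 3, with the other 4 arrays within 6.13 to 6.48. Its difference was 0.18 (SE 0.35, interval -0.64 to 1.01, adjusted p = 0.981), and without epiRIL12 replicate 2 it was -0.17. In the authors' deposited table it was -0.17 with all arrays. The annotation places SMR5 over part of ftsh10, a gene for a mitochondrial protease, which stood at 9.19 in Col and 9.17 in epiRIL12.

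SMR7 had log2 values of 4.29, 4.77 and 4.38 in Col and 5.81, 4.77 and 3.92 in epiRIL12. The epiRIL12 arrays held both the highest and the lowest value, 1.89 apart, while the Col arrays lay within 0.49. On 5 of the 6 arrays SMR7 was below the lower quartile of all loci, the exception being epiRIL12 replicate 1. No background level was given, so at such a signal a difference might not be seen, and a difference of array values need not be a ratio of RNA. The difference of means was 0.36 (SE 0.45, interval -0.72 to 1.43, limma adjusted p = 0.969), and without epiRIL12 replicate 1 it was -0.13. In the authors' deposited table the difference was 0.19.

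PARP1 and PARP2 encode poly(ADP-ribose) polymerases, which sense broken DNA and mark proteins around it; the names have been swapped in part of the literature, and here they follow the annotation. PARP1 (AT2G31320) had log2 values of 7.31, 7.59 and 7.52 in Col and 7.49, 7.34 and 7.47 in epiRIL12, the epiRIL12 range lying inside that of Col. Its difference was -0.041 (SE 0.11, interval -0.30 to 0.22, limma adjusted p = 0.986). PARP2 (AT4G02390) had 6.75, 6.78 and 6.70 in Col and 7.00, 7.02 and 7.24 in epiRIL12. All 3 epiRIL12 values were above all 3 Col values, with 0.21 between the groups. Such a separation was found in 12.1% of all loci in either direction and in 5.19% upward. The means were 6.75 ± 0.04 (SD, n = 3) and 7.09 ± 0.14, a difference of 0.34 or 1.26-fold (SE 0.10, interval 0.10 to 0.58). The unadjusted limma p was 0.0135 and the adjusted p was 0.460, so the difference did not pass over all loci; 2.93% of loci had a smaller p. An exact permutation test of 3 against 3 arrays cannot give a two-sided p below 0.1. The authors' deposited table gave PARP2 a difference of 0.34 with an unadjusted p of 0.00874, which adjustment over all loci raised to 0.418; 6.55% of loci in that table had a p under 0.05, PARP2 alone among the 10 genes.

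BRCA1, which acts in repair by homologous recombination and is one of the transcripts raised most by ionising radiation, had log2 values of 6.92, 7.06 and 7.11 in Col and 6.92, 6.96 and 7.23 in epiRIL12. Its difference was 0.0084 (SE 0.12, interval -0.27 to 0.29, limma adjusted p = 0.997). XRI1, named for its induction by X-rays and needed in meiosis, had 7.68, 7.92 and 7.83 in Col and 7.64, 7.90 and 7.86 in epiRIL12. Both groups covered nearly the same range, and the difference was -0.011 (SE 0.11, interval -0.28 to 0.26, adjusted p = 0.997). In the authors' deposited table BRCA1 had -0.085 and XRI1 0.047.

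The precision differed between the genes. For 8 of them the 95% interval, which is for each gene alone and not adjusted for the number of genes, lay inside a 1.5-fold change in either direction; SMR5 and SMR7 were the exceptions, with intervals reaching 2.02-fold and 2.69-fold upward. At the standard errors found, a call would have needed a change of 1.53-fold for ATR, 1.56-fold for PARP2 and up to 1.80-fold for SOG1, but 4.58-fold for SMR5 and 7.19-fold for SMR7. The within-group SD was 0.09 for ATR and 0.10 for PARP2, below the median of 0.17 over all loci, and 0.53 for SMR5 and 0.69 for SMR7. Of all loci, 3.84% varied more than SMR5 and 1.19% more than SMR7.

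**Figure D2:**
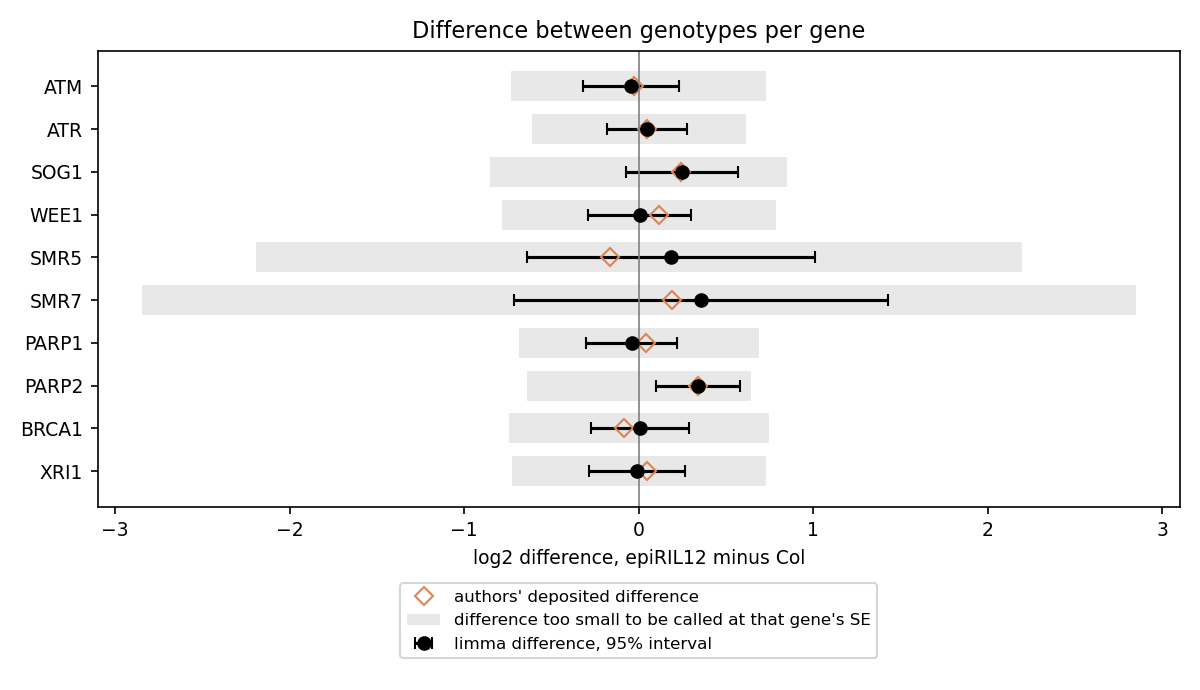
Log2 difference, epiRIL12 minus Col (horizontal axis), of each gene from limma with its 95% interval (black), the authors' deposited difference (open diamonds) and the range in which a difference would not have been called at that gene's standard error (grey). All points lie inside their grey range, which reaches 7.19-fold for SMR7.

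No single array held the highest or the lowest value of more than 3 of the 10 genes. Over all loci, the share with the highest value on a given array was 12.0% to 19.8%. The share with the lowest was 13.9% to 19.9%. The highest value of a gene fell on Col replicate 2 for ATM, PARP1 and XRI1, on epiRIL12 replicate 1 for ATR, SOG1 and SMR7, and on epiRIL12 replicate 3 for PARP2 and BRCA1. The lowest fell on epiRIL12 replicate 2 for ATM, ATR and WEE1 and on Col replicate 3 for SOG1 and PARP2. Genes above their own mean over the 6 arrays numbered 2 on Col replicate 1 and 8 on epiRIL12 replicate 3, the extremes among the arrays.

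The wider pathway was examined with 6 further lists of 64 genes, of which 62 were measured. None of the 62 was called in either direction, where 0.974% of all loci and 0.179% of protein-coding loci were. An unadjusted p under 0.05 was found for 2, RAD51B and UVR3 (3.23%, against 7.04% of all loci), so neither count stands out from the background. Of the 62, 28 were above 0 and 34 below, where 43.4% of all loci were above 0. Their median was -0.015 against -0.023 over all loci. The Col and epiRIL12 values did not overlap in 5 of the 62 genes (8.06%), against 12.1% of all loci.

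Among 11 genes tied to the transcriptional response to damage, 0 were called and the median was 0.09. Above 0 were 9 of them, and 43.4% of all loci. The groups overlapped in all 11, while 12.1% of all loci showed no overlap. None of the 11 had an unadjusted limma p under 0.05, which 7.04% of all loci had. TSO2, a ribonucleotide reductase subunit that supplies nucleotides, had the highest difference, 0.24 (SE 0.14), and the NAC factor ANAC044, which acts downstream of SOG1, the lowest, -0.40 (SE 0.19, limma adjusted p = 0.784). ANAC044 had 6.11, 6.21 and 5.86 in Col and 5.28, 5.89 and 5.82 in epiRIL12, so the groups overlapped. Its relative ANAC085 stood at 0.14 (SE 0.17). GMI1, a structural maintenance of chromosomes-like gene named for its induction by gamma rays, had -0.02 (SE 0.09), and RPA1E, a single-strand binding subunit, 0.09 (SE 0.12). The mitotic cyclin CYCB1;1, whose transcript increases in damaged cells, had 0.07 (SE 0.14), and the inhibitor SMR4 0.22 (SE 0.32).

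In the list of damage sensors 0 of 9 were called and 7 were below 0, with a median of -0.14, where 43.4% of all loci were above 0. The complex that binds broken ends had values of -0.03 for MRE11 (SE 0.09), -0.14 for RAD50 (SE 0.11) and -0.17 for NBS1 (SE 0.15). SUV2, the partner of ATR also known as ATRIP, had 0.01 (SE 0.10). RAD17, which loads the checkpoint clamp, had 6.79, 7.00 and 6.85 in Col and 6.68, 6.66 and 6.78 in epiRIL12. Its groups did not overlap, as in 12.1% of all loci, and the difference was -0.17 (SE 0.10, limma adjusted p = 0.850). The histone H2AX genes HTA3 and HTA5 marked both ends of the list, at 0.02 (SE 0.20) and -0.20 (SE 0.31).

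End-joining genes were among the most tightly measured. KU70, which with KU80 caps broken ends, had 7.98, 8.01 and 8.01 in Col and 7.83, 7.79 and 7.88 in epiRIL12. The difference was -0.16 (SE 0.08, limma adjusted p = 0.808), and the groups did not overlap, as in 12.1% of all loci. The authors' deposited table gave KU70 -0.23 with an unadjusted p of 0.00112, and 0.140 after adjustment over all loci. KU80 had -0.05 (SE 0.08) and the ligase LIG4 -0.12 (SE 0.09), while XRCC4, the partner of LIG4, had 0.09 (SE 0.12). All 4 measured genes of this list were without a call.

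In homologous repair 0 of 11 genes were called, and the widest value of the list belonged to RAD51B. RAD51B had 5.78, 5.46 and 5.58 in Col and 5.09, 5.20 and 4.72 in epiRIL12. All 3 epiRIL12 values were below all 3 Col values, a pattern of 6.89% of all loci, or 12.1% in either direction. The difference was -0.60 (SE 0.16, limma adjusted p = 0.319). The authors' deposited table gave it -0.65 with an unadjusted p of 0.0252, and 0.641 after adjustment over all loci. BARD1, the partner of BRCA1, had 0.14 (SE 0.11), BRCA2B, a recombination mediator, -0.29 (SE 0.16) and RAD51D, the highest of the list, 0.16 (SE 0.25).

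Of 15 genes of other repair routes 0 were called. UVR3, the photolyase for (6-4) photoproducts made by ultraviolet light, had 6.26, 5.88 and 5.90 in Col and 6.49, 6.61 and 6.30 in epiRIL12. The groups of UVR3 did not overlap, as in 12.1% of all loci. Its difference was 0.45 (SE 0.14, unadjusted limma p = 0.0169, adjusted p = 0.507), and in the authors' deposited table it was 0.33 with a p of 0.231. PARP3, the remaining poly(ADP-ribose) polymerase gene, had 0.05 (SE 0.10). Among 12 further inhibitors of cyclin-dependent kinases, 0 were called, and 6 were above and 6 below 0. The locus AT1G08180 had the highest difference of the list, 0.66 (SE 0.30, limma adjusted p = 0.771), KRP5 the lowest, -0.29 (SE 0.15), and SIAMESE (SIM), the founding member of the SMR family, 0.25 (SE 0.20). KRP1, at -0.22 (SE 0.10), was the one gene of the list whose groups did not overlap (8.33%, against 12.1% of all loci).

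**Figure D3:**
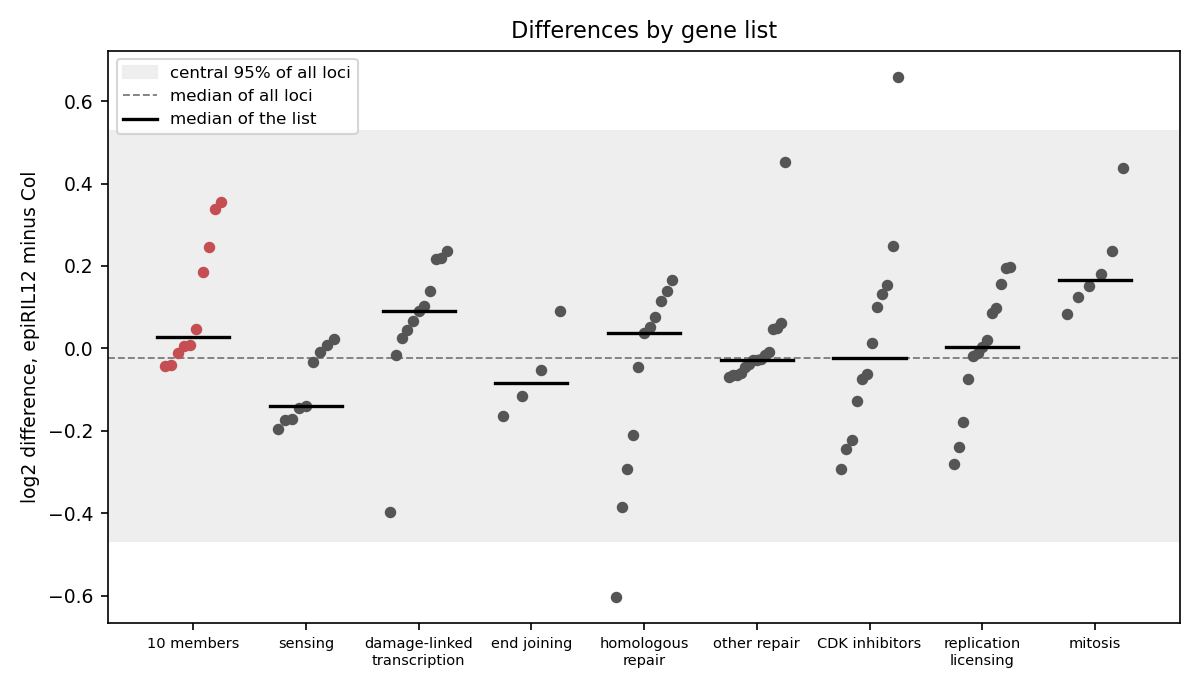
Log2 difference, epiRIL12 minus Col (vertical axis), of each measured gene in the 10 members (red), the 6 further pathway lists and the replication and mitosis lists (grey points); black lines are list medians, the dashed line the median of all loci and the band the central 95% of all loci (-0.47 to 0.53). RAD51B lies below the band and AT1G08180 above it, and none of the genes shown was called.

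The damage response is best known from dividing cells, so genes of replication and mitosis were set beside them. Of 13 replication licensing and clamp genes 0 were called, with a median of 0.0033 and values from -0.28 for CDC6 (SE 0.11) to 0.20 for MCM2 (SE 0.11); MCM5, a helicase subunit, had 0.20 (SE 0.10). Of 6 mitotic genes 0 were called, with a median of 0.16. All values were above 0, where 43.4% of all loci were, from 0.08 for CDKB2;1 (SE 0.16) to 0.44 for the kinase AUR2 (SE 0.17). The groups overlapped in all 6, while 12.1% of all loci showed no overlap. CYCB1;2, CDKB2;1, AUR2 and KN were each highest in epiRIL12 replicate 1, CDKB1;1 in Col replicate 2 and AUR1 in epiRIL12 replicate 3. Genes that vary together by array are not separate observations of the genotypes. The median of the 10 members, 0.027, lay between those of both lists. Whether the share of dividing cells differed between the samples was not tested.

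The neighbours of the 10 genes were examined next. Of the 5 loci on each side in locus order, 100 in all, 0 were called and 6 had an unadjusted p under 0.05, close to the 0.974% and 7.04% of all loci. The differences of these neighbours ran from -0.68 to 0.84. The nearest called locus was 34 loci away from SMR7, the pseudogene AT3G27327 (log2 1.75), and at least 152 loci away from every other member, with 172 for PARP2 and 637 for PARP1. SAG21, a senescence-associated gene directly before PARP2, had a difference of 0.50 (SE 0.17, limma adjusted p = 0.595), and AT4G02400 directly after it -0.03 (SE 0.13).

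PARP2 had the largest moderated statistic of the 10 genes, and the loci with the most similar profile over the 6 arrays were sought for it. After each locus was centred on its own mean, the 5 with the smallest root mean square gap among 29669 were AT3G48425 (gap 0.05), AT1G15350 (0.06), AT5G33255 (0.06), AT1G63250 (0.06) and AT4G05280 (0.07), beside a root mean square of 0.19 for PARP2 itself. Their differences were 0.38, 0.26, 0.23, 0.42 and 0.23, and none was called. AT5G33255 and AT4G05280 are annotated as pseudogenes. Likeness over 6 arrays follows largely from the separation of the groups, which 12.1% of all loci showed in either direction.

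**Figure D4:**
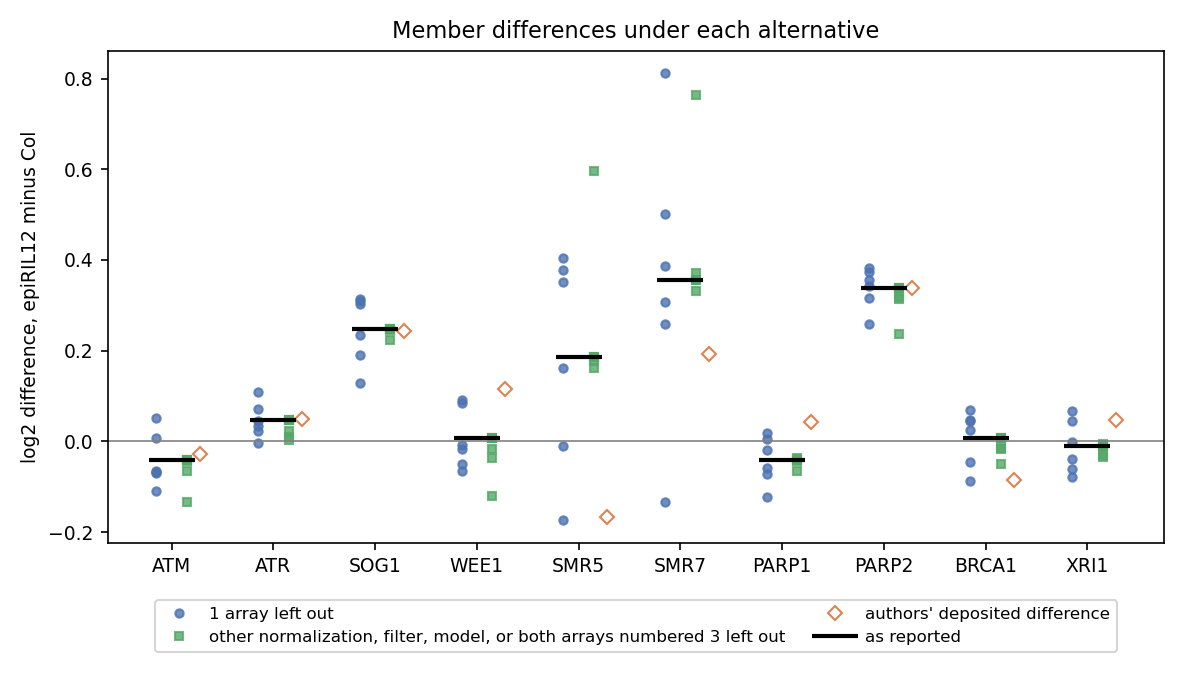
Log2 difference, epiRIL12 minus Col (vertical axis), of each gene as reported (black line), with 1 array left out (blue), with other normalizations, filters, models or both arrays numbered 3 left out (green), and in the authors' deposited table (open diamonds). SOG1 and PARP2 stay above 0 throughout, at 0.13 to 0.31 and 0.24 to 0.38, while SMR5 and SMR7 move most. For PARP2, whose groups do not overlap, leaving out arrays could not change the sign.

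Across 13 other settings SOG1 and PARP2 kept a difference above 0, with ranges of 0.13 to 0.31 and 0.24 to 0.38, and the other 8 genes changed sign in at least 1. For PARP2, whose groups do not overlap, leaving out arrays could not change the sign. A block for replicate number, another variance model and a filter on low signal leave each kept gene's difference as it was. Those settings therefore do not test the sign. PARP2 had its lowest limma adjusted p, 0.357, with the 25% of loci of lowest signal left out, and its highest, 0.898, with both arrays numbered 3 left out. No setting called any of the 10 genes, neither an adjusted p under 0.10, which called 1.16% of all loci, nor the adjusted p-values of the authors' deposited table, which called 0.465%.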

How the data were processed

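Per the labels' protocols, total RNA was depleted of ribosomal RNA, copied with random primers, amplified and hybridised as biotin-labelled double-stranded cDNA to Affymetrix arrays. The authors deposited 1 log2 value per locus and array, and a log2 difference and p-value per locus; how the values were normalized and tested, and the genome build, are not stated in the labels or headers. Locus names were joined by position from the authors' deposited table: differences of group means correlated with the authors' log2 differences at r = 0.967 in place and 0.166 when shifted by 1 position (across loci, not independent replicates), which also fixed the sign as epiRIL12 minus Col. The largest gap between both differences was 0.756 over all loci and 0.35 among the 10 genes, so the authors' differences are not those of the deposited group means. How they were obtained is not stated.

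All loci entered one two-sided limma model (version 3.58.1, R 4.3.3) of genotype alone, with lmFit, eBayes, no filter and Benjamini-Hochberg adjustment over 29670 loci; a call is an adjusted p under 0.05. The change needed for a call is the smallest absolute moderated t among called loci, 6.36, times a gene's standard error. In simulated data of 29670 loci with 200 changed, 6% of log2 changes of 0.5, 60% of 1, 90% of 2 and 98% of 4 were recovered, with 3 false among 130 calls. The number of arrays limits the precision. Plots were made with matplotlib 3.10.9 and summaries with pandas 2.3.3 and numpy 2.4.6 (Python 3.11.15).

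Symbols, classes, overlaps and neighbours came from the NCBI RefSeq gene table of TAIR10.1, which matched all 10 genes; the planned promoter motif search was not run. Of 106 list entries 104 were measured; AT4G32700 and AT5G61460 were not analysed. Named were the 10 members, the highest and lowest gene of each list, a set fixed by symbol, and the 5 loci most like the member with the largest moderated t; KRP1, CLV3 and the SMR genes named for their spread, and single neighbours were named after their values were seen. Some genes that this rule names are not reported here. The 10 genes and the lists were chosen with earlier results of these data known. Alternatives planned were a replicate block, median centring, quantile normalization, each array left out in turn, a filter that dropped the 25% of loci with the lowest mean, a trended robust eBayes and an adjusted p under 0.10. Leaving out both arrays numbered 3, and the authors' deposited values, were added after the data were seen.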

Additional observations from a re-analysis of the deposited data

How the results depend on the processing

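No alternative called any of the 10 genes or of the 62 other pathway genes, in either direction, and the median difference of the 10 ran from -0.0034 to 0.068 with 1 array left out. Whether replicate numbers pair the samples could not be told. Deviations of same-numbered arrays correlated at -0.037, -0.072 and 0.13, and those of other-numbered arrays at -0.086 to 0.12. Deviations from a mean of 3 arrays sum to 0, so these correlations depend on each other. With the replicate block the differences were those of the fit without it, SOG1 had an adjusted p of 0.735, and 13 loci fell in place of 25. Over all loci, rises numbered 264, but 141 without both arrays numbered 3 and 123 by the authors' p-values; falls numbered 10 and 15 in these, 39 at an adjusted p under 0.10 and 10 to 19 with 1 array left out. Small differences changed sign. WEE1 had -0.017 with median centring, -0.036 with quantile normalization and -0.12 without both arrays numbered 3, and BRCA1 had -0.015, -0.016 and -0.049. By the authors' deposited table SMR5 had -0.17, PARP1 0.042, BRCA1 -0.085 and XRI1 0.047. With 1 array left out the ranges were -0.11 to 0.051 for ATM, -0.0032 to 0.11 for ATR, -0.065 to 0.091 for WEE1, -0.17 to 0.40 for SMR5, -0.13 to 0.81 for SMR7, -0.12 to 0.018 for PARP1, -0.088 to 0.069 for BRCA1 and -0.078 to 0.067 for XRI1. The cause was not tested. SMR7 has no value with the 25% of loci of lowest mean left out. Median centring moved the median of all loci from -0.023 to -0.047.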

Other observations

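Within-group spread was compared after the values were seen, as a description. SIM, SMR1, SMR4, SMR5 and SMR7, the listed SIAMESE-family genes whose names stand among the annotation's symbols or synonyms, all had a within-group SD above the median locus (0.17), from 0.24 for SMR1 to 0.69 for SMR7. So did all 6 mitotic genes, with a median of 0.27, and 5 of 7 KRP genes, the other family of cyclin-dependent kinase inhibitors. Among the 3 meristem markers the SD was 0.72 for CLV3, 0.29 for STM and 0.15 for WUS, the last below the median locus. SMR7 and SIM were both highest in epiRIL12 replicate 1, where SIM had 9.20 against 8.38 to 8.69 on the other arrays. SMR4 and AT1G08180 were both lowest in Col replicate 3, SMR4 at 5.47 against 6.18 to 6.72 and AT1G08180 at 4.87 against 5.87 to 6.44. SMR5 was highest in epiRIL12 replicate 2. None of these genes was called between the genotypes.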
